A study of Mus musculus with 21 samples.

Results

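The chondrogenic Sox factors and the proteoglycans and linking proteins of cartilage were followed here as 10 of the 23983 genes in the mouse expression table: Sox5, Sox6, Sox8 and Sox9, and Acan, Hapln1, Hapln3, Matn1, Matn3 and Matn4. They were listed by gene symbol as known cartilage genes, with earlier results of these data known, and all 10 symbols were found in the table. RNA had been sequenced from 9 populations of FACS-sorted cells, with 1 library each, so that none of the differences below has a replicate check and none carries a p-value. Levels are FPKM, fragments scaled for transcript length and for the mapped fragments of each library, a scale on which different genes can be compared. Averaged over the 9 libraries, 8 of the 10 genes reached 1 FPKM, as did 11922 genes in all.

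The 6 embryonic libraries came from embryos at E8.5 and E9.5, made from modified F1G4 (C57BL/6N x SV129) mouse ES cells. The labels give tetraploid complementation as the way the embryos were made, whereas the study's text gives aggregation with diploid morulae for this reporter line. All carried 3 BAC reporters, T::H2B-Venus, Noto::H2B-mCherry and Foxa2::H2B-mTurquoise. Notochord progenitors (NotoP) were sorted as cells positive for all 3 reporters from the caudal end, trunk notochord as cells positive for the same 3 reporters from the trunk, and mesodermal progenitors (MP) from the caudal end as T+/Noto-/Foxa2- cells, after tissue had been pooled. The study's sample list gives a high Foxa2 reporter gate for both trunk libraries and for NotoP at E9.5, but not for NotoP at E8.5, and the trunk libraries were pooled over wider ranges of somite number. At E8.5 the region, the Foxa2 gate and the range of somite stages cannot be told apart in the ratio of trunk notochord to NotoP. At E9.5 the same holds for the region and the range of somite stages. The 3 cultured libraries came from F1G4 cells with TRE::Foxa2-IRES-EGFP in the Rosa26 locus and the BACs T::H2B-mCherry-T2A-irTA and Noto::H2B-mTurquoise, so that doxycycline switched on the Foxa2 transgene in T-expressing cells. NMPdiff cells (neuromesodermal progenitors, day 3) and MPdiff cells (mesodermal progenitors, day 4) were sorted as T+/Noto-, and NotoPdiff cells (notochord progenitor-like, day 4) were sorted as Noto+/T+ after doxycycline at 1 ng/ml. ChIP-seq peaks for the transcription factors T and Foxa2 came from NotoPdiff cultures that had not been sorted, with 1 library per factor. Embryonic and cultured RNA libraries were sequenced on different instruments, so ratios were taken only within each set.

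The sorted libraries were read for marker genes. T, Noto and Foxa2 among them are also the genes of the embryonic sorting reporters. Their levels were therefore tied to the sort and are no separate check of the labels. The summed level of 6 notochord markers (T, Noto, Foxa2, Shh, Nog and Chrd) was 1049 and 1136 FPKM in the trunk libraries of the earlier and the later stage, 1391 and 1180 in NotoP, and 76.1 and 163 in MP. The sums hide differences between single markers. Noto stood at 27.5 and 20.8 FPKM in trunk notochord against 152 and 164 in NotoP, and Shh at 468 and 607 against 161 and 178. Chrd was listed at 0 in the E9.5 trunk library. Markers of neighbouring tissues were not absent from the trunk libraries. The 8 markers of sclerotome and somite summed to 39.1 and 37.4 FPKM in trunk notochord, 20.4 and 20.8 in NotoP and 68.4 and 39.6 in MP, with Pax1 listed at 0 in every embryonic library except the E9.5 trunk library, where it stood at 13.5. The 8 markers of neural crest summed to 22.6 and 39.2 FPKM in trunk notochord, 4.44 and 13.5 in NotoP and 27.6 and 23.7 in MP, and Sox10 alone reached 26.3 in the E9.5 trunk library. The 8 neural tube markers summed to 35.2 and 17.6 FPKM in trunk notochord, 19.8 and 11.3 in NotoP and 1.99 and 5.1 in MP. The 7 gut markers found summed to 82.7 and 58.1 FPKM in trunk notochord against 178 and 133 in NotoP and 75.4 and 56.7 in MP, and Ttr was found in trunk notochord at 36 and 23.4 and was listed at 0 in NotoP. Of the 8 blood markers, 7, including all 4 globin genes, were listed at 0 in all 6 embryonic libraries. The part these markers play in the results was not tested, and in sorted bulk samples fewer cells of a type and less RNA per cell cannot be told apart.

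The libraries also differed in how low a level they resolved. The lowest values above 0, taken as the 5th percentile, lay at 0.844 and 0.953 FPKM in the trunk libraries and at 0.978 in MP at E8.5, against 0.221 to 0.432 in the other 3 embryonic libraries and 0.0504 to 0.0798 in culture. These 3 libraries were also the ones that the study had made from the fewest cells and reads among the 6 embryonic ones. A value of 0 in them covers a wider range of levels than a value of 0 in culture.

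Cartilage is built by a small set of regulators and matrix proteins. Sox9 starts the programme, and Sox5 and Sox6 act beside it on shared enhancers of cartilage genes. Aggrecan, the product of Acan, is a core protein laden with chondroitin sulfate chains. It is fixed to hyaluronan by link proteins (the Hapln family), and matrilins bridge these aggregates to collagen fibrils. The notochord is known to make a sheath of the same kind of matrix, and its cells later form the nucleus pulposus of the intervertebral disc.

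**Figure D1:**
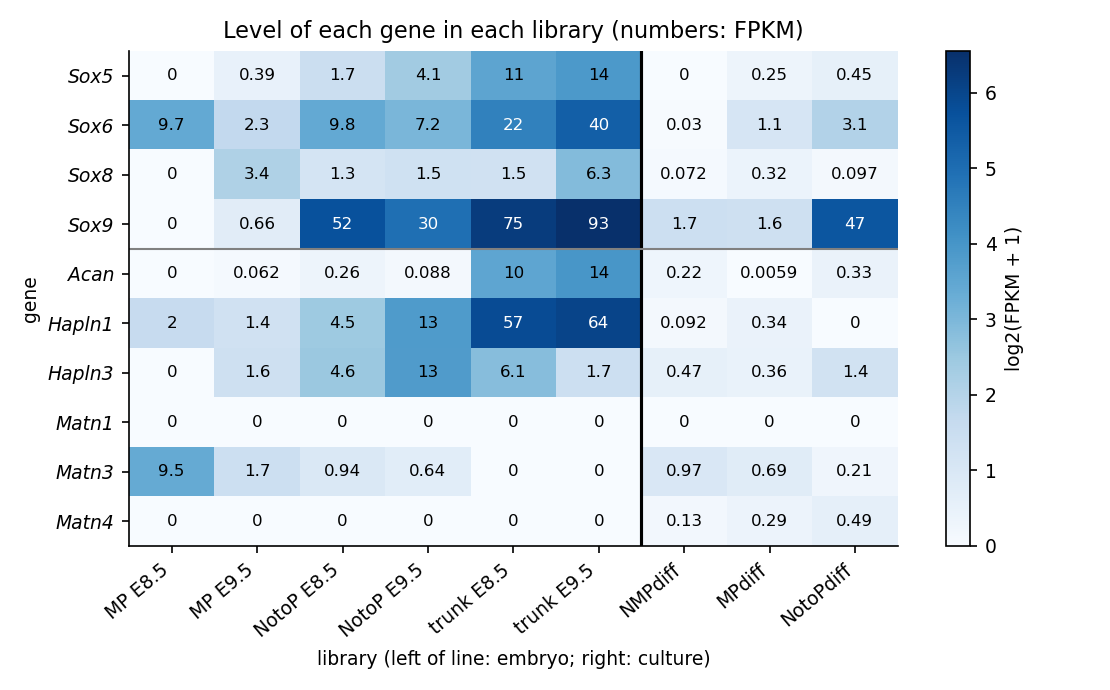
Level of each of the 10 genes (rows) in each of the 9 libraries (columns), with the FPKM written in each cell and log2(FPKM + 1) as colour. Sox9 stood between 30 and 92.9 FPKM in the 4 embryonic libraries with notochord cells and in NotoPdiff, whereas Acan passed 1 FPKM only in the 2 trunk libraries.

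Sox9 had the highest level of the 4 Sox genes followed here in every library from Noto+ cells. It stood at 74.8 FPKM in the E8.5 trunk library and 92.9 in the E9.5 one, and, in the same order of stages as everywhere below, at 51.9 and 30 in NotoP, and at 0 and 0.662 in MP. In culture it stood at 1.69 FPKM in NMPdiff, 1.56 in MPdiff and 47.1 in NotoPdiff. All 5 libraries from Noto+ cells were thus above all 4 from Noto- cells, and the lowest of the 5 was NotoP at E9.5. Between NotoP and trunk notochord the level of Sox9 differed far less, 1.44-fold at E8.5 and 3.1-fold at E9.5, with the trunk higher both times.

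Sox9 (ENSMUSG00000000567.5) occupies chr11:112782224-112787760 on the plus strand of mm10, in a gene-poor interval of 2168 kb between its protein-coding neighbours. The whole interval held 13 T peaks and 37 Foxa2 peaks. Within 100 kb of the gene lay 2 T peaks and 4 Foxa2 peaks. One site was shared: a T peak of 7.2-fold and a Foxa2 peak of 8.43-fold enrichment overlapped 59.2 kb upstream of Sox9, with summits 1 bp apart, in an intron of BC006965. The second T peak, of 8.96-fold enrichment, lay 38.1 kb downstream of the Sox9 start in intergenic sequence. The Foxa2 peak with the highest enrichment near Sox9, 15.7-fold, lay 55.5 kb downstream. These 3 windows are shown because they are the shared site, the other T peak and the strongest Foxa2 peak near the one gene of the 10 with a high level in sorted NotoPdiff cells. Each is 201 bases around a summit on the plus strand of mm10, and capitals mark letters searched on either strand. These were the T half-site AGGTGTGA and the 6-base core GTGTGA within it, and 3 forms of the forkhead site. The forms were TGTTTAC, a form with A as its second base (TATTTAC) and a form with G as its sixth (TGTTTGC).
Sox9 shared site, T summit, chr11:112722954-112723154: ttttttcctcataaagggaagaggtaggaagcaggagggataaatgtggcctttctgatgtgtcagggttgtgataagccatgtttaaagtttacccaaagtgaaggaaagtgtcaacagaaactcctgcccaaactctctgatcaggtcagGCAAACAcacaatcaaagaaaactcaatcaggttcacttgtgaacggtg
Sox9 downstream T peak, chr11:112820194-112820394: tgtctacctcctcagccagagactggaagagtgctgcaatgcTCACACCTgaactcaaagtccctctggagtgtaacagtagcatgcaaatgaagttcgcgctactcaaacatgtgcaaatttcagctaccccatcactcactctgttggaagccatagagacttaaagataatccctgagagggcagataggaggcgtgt
Sox9 downstream Foxa2 peak, chr11:112837641-112837841: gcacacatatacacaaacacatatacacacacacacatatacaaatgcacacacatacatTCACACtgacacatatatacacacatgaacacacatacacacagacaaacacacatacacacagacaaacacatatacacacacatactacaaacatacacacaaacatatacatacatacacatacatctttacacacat
The shared window held 1 forkhead site and no T core. The downstream T window held 1 T half-site, the only one among the 24 T peaks near the 10 genes. Its share over all 6871 T peaks was 4.08%, against 0.873% in windows 10 kb away. The 15.7-fold Foxa2 window was a run of CA repeats without a forkhead site: 61% of its dinucleotide steps were CA, AC, TG or GT, and repeat masking covered 100% of it. Windows with more than 50% such steps made up 20.9% of all 22680 Foxa2 peaks and 0.16% of T peaks.

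Sox5 and Sox6, which encode a pair of related factors that work with Sox9, were both higher in the trunk. Sox5 stood at 10.6 and 13.7 FPKM in trunk notochord, 1.73 and 4.13 in NotoP, 0 and 0.387 in MP, and no higher than 0.454 in culture. Sox6 stood at 21.6 and 39.8 FPKM in trunk notochord, 9.75 and 7.25 in NotoP, 9.71 and 2.27 in MP, and at 0.0298, 1.12 and 3.13 in NMPdiff, MPdiff and NotoPdiff. For both genes the 2 trunk libraries lay above all 7 others. The trunk level exceeded the NotoP level 6.12-fold at E8.5 and 3.31-fold at E9.5 for Sox5, and 2.21-fold and 5.49-fold for Sox6. At E8.5 the level of Sox6 in NotoP was that of MP, with a log2 ratio of 0.01 on the FPKM + 1 scale, and at E9.5 it was 3.19-fold higher in NotoP.

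Both are large genes with many peaks inside them. Sox5 (ENSMUSG00000041540.16, chr6:143828425-144781977, minus strand) had 3 T peaks and 20 Foxa2 peaks, of which 3 and 18 lay inside the gene. Sox6 (ENSMUSG00000051910.13, chr7:115470872-116038796, minus strand) had 9 T peaks and 6 Foxa2 peaks, all inside the gene. The T peak with the highest enrichment near any of the 10 genes, 17.5-fold, lay in an intron of Sox5, 421 kb into the gene, and overlapped a Foxa2 peak of 8.15-fold enrichment with summits 196 bp apart. In Sox6, 3 of the 9 T peaks overlapped a Foxa2 peak, and 1 of these, with 10.2-fold T and 8.3-fold Foxa2 enrichment, lay 149 bp upstream of an annotated internal start of Sox6. Its strongest T peak, of 14.8-fold, lay 182 kb into the gene without an overlapping Foxa2 peak. Of the sites where a T and a Foxa2 peak overlap inside these genes, that of Sox5 is shown. For Sox6 only the site at the internal start is shown.
Sox5 shared site, T summit, chr6:144361341-144361541: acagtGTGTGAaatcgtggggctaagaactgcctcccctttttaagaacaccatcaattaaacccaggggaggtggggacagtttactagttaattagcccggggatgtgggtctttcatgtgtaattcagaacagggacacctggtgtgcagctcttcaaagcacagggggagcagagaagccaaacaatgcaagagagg
Sox5 shared site, Foxa2 summit, chr6:144361537-144361737: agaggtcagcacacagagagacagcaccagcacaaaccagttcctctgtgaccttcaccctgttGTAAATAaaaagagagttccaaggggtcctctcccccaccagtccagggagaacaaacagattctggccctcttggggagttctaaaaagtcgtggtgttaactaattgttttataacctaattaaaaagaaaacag
Sox6 shared site at the internal start, T summit, chr7:115824759-115824959: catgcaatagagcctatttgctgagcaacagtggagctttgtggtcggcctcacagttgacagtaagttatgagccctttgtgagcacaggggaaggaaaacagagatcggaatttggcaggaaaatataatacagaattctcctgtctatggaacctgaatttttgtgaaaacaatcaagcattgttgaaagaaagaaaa
The Sox5 site held a T core in its T window and a forkhead site in its Foxa2 window, whereas the Sox6 window held none of the letters searched. The Foxa2 peak with the highest enrichment near Sox5, 19.4-fold and 52.1 kb upstream, had CA or TG steps in 71.5% of its window, and such steps passed 50% in 8 of the 20 Foxa2 peaks around Sox5.

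Sox8, a close relative of Sox9 and Sox10, stayed low. It stood at 1.47 and 6.34 FPKM in trunk notochord, 1.26 and 1.5 in NotoP, 0 and 3.35 in MP, and no higher than 0.319 in culture. The highest value was thus the trunk library at E9.5, which was 4.22-fold above NotoP of that stage and was also the library with the highest Sox10. At E8.5 trunk and NotoP differed 1.17-fold. Sox8 (ENSMUSG00000024176.10, chr17:25565892-25570686, minus strand) had 3 T peaks within 100 kb, 2 of them in introns of its neighbour Lmf1 and 1 in Tekt4, and no Foxa2 peak.

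Acan was near 0 in progenitors and above 10 FPKM in trunk notochord. It stood at 10.5 and 14.5 FPKM in trunk notochord and at 0.256 and 0.0876 in NotoP, a 40.8-fold and a 166-fold difference in FPKM. Both NotoP values lay below the 5th percentile of values above 0 in their libraries (0.432 and 0.333), so the size of these ratios is uncertain. On the log2 scale of FPKM + 1, Hapln1 differed more than Acan at E8.5, by 3.39 against 3.19, and Acan differed more at E9.5. In MP it stood at 0 and 0.0622 FPKM, and in NMPdiff, MPdiff and NotoPdiff at 0.224, 0.00591 and 0.331. The 2 trunk libraries thus lay far above the 7 others, the highest of which was NotoPdiff. The summed sclerotome and somite markers were also higher in the trunk than in NotoP, 39.1 against 20.4 FPKM at E8.5 and 37.4 against 20.8 at E9.5, and their part in this difference was not tested.

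Hapln1, which encodes the link protein of cartilage, followed Acan at a higher level. It stood at 56.6 and 64.4 FPKM in trunk notochord, 4.48 and 13.2 in NotoP, 2.05 and 1.45 in MP, and between 0 and 0.344 in culture. The trunk level was 12.6-fold that of NotoP at E8.5 and 4.86-fold at E9.5. Unlike Acan, Hapln1 was already above MP in NotoP, 2.18-fold at E8.5 and 9.15-fold at E9.5, and it was 2.96-fold higher in NotoP at E9.5 than at E8.5.

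Acan (ENSMUSG00000030607.7) lies at chr7:79053483-79115099 on the plus strand and had 1 T peak of 6.94-fold enrichment in an intron, 24 kb from its 5′ end, and 1 of 9.07-fold 54.5 kb upstream. No Foxa2 peak lay inside the gene, and the strongest of 4 nearby, of 13.8-fold, had CA or TG steps in 64% of its window. Hapln1 (ENSMUSG00000021613.9) lies at chr13:89539796-89611652 on the plus strand and had 3 intronic Foxa2 peaks, 21.7 kb, 23.1 kb and 36.6 kb from its 5′ end. Its only T peak within 100 kb of the gene, of 14-fold enrichment, lay 109 kb from the 5′ end, beyond the gene. Of the 3 intronic Foxa2 peaks, the first 2 were rich in CA or TG steps (55.5% and 54%), and the third, of 7.85-fold enrichment, was not, at 26%. The windows shown are the intronic T peak of Acan, the intronic Foxa2 peak of Hapln1 outside such repeats, and the T peak downstream of Hapln1.
Acan intronic T peak, chr7:79077430-79077630: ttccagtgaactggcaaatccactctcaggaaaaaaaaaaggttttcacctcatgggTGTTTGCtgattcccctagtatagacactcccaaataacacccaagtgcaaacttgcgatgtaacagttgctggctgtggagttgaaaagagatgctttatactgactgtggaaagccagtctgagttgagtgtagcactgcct
Hapln1 intronic Foxa2 peak, chr13:89576288-89576488: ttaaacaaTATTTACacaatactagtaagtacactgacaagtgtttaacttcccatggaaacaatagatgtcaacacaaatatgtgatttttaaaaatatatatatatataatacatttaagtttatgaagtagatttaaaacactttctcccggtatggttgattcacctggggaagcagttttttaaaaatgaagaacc
Hapln1 downstream T peak, chr13:89648968-89649168: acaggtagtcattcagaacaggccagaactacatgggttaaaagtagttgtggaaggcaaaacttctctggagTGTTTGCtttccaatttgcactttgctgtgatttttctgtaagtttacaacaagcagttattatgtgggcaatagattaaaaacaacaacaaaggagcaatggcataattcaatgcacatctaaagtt
Each of the 3 windows held 1 forkhead site and none held the T core. These peaks came from unsorted cultures, whereas the levels in NotoPdiff, 0.331 FPKM for Acan and 0 for Hapln1, are those of sorted Noto+/T+ cells.

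Hapln3, a link protein gene also used outside cartilage, differed in direction between the stages. It stood at 6.14 and 1.66 FPKM in trunk notochord, 4.61 and 13 in NotoP and 0 and 1.6 in MP. At E8.5 the trunk was 1.33-fold higher than NotoP, and at E9.5 NotoP was 7.86-fold higher than the trunk. In culture it stood at 0.475, 0.364 and 1.36 FPKM in NMPdiff, MPdiff and NotoPdiff. Hapln3 (ENSMUSG00000030606.8, chr7:79115102-79131018, minus strand) is the tail-to-tail neighbour of Acan: the annotated genes end 3 bp apart. All 4 of the peaks near Hapln3, 1 for T and 3 for Foxa2, also count among those of Acan, yet in NotoP at E9.5 the levels of the 2 genes were 13 and 0.0876 FPKM.

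The matrilin genes were low or listed at 0 in the notochord. Matn1 (ENSMUSG00000040533.7) was listed at 0 in all 9 libraries. Matn4 (ENSMUSG00000016995.17) was listed at 0 in the 6 embryonic libraries and stood at 0.128, 0.291 and 0.488 FPKM in NMPdiff, MPdiff and NotoPdiff. Matn3 (ENSMUSG00000020583.4) was the only one with a level of note, in the opposite order to Acan. It stood at 9.47 and 1.67 FPKM in MP, 0.939 and 0.641 in NotoP and 0 in both trunk libraries. Values above 0 in the trunk libraries had a 5th percentile of 0.844 and 0.953 FPKM. The step from NotoP to the trunk is therefore uncertain. The value of 9.47 comes from the MP library at E8.5, in which 13945 genes were listed at 0, more than in any other. In culture Matn3 stood at 0.975 FPKM in NMPdiff, 0.692 in MPdiff and 0.21 in NotoPdiff. Near Matn1 (chr4:130944385-130955475) lay 2 Foxa2 peaks, both rich in CA or TG steps, and no T peak. Matn3 (chr12:8947929-8972028) had 3 T and 4 Foxa2 peaks with 1 shared site 92.4 kb upstream, and Matn4 (chr2:164389393-164405160) had 1 T peak and no Foxa2 peak.

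The comparison of trunk notochord with NotoP asks which of these genes differ between the notochord and its progenitors. A gene was counted as different if the ratio of FPKM + 1 reached 3-fold, 1.58 on the log2 scale, and the counts are given over all 10 genes. At E8.5, 3 of the 10 genes (Sox5, Acan and Hapln1) were at least 3-fold higher in trunk notochord, where 7.37% of the 11922 genes were. At E9.5, 4 of the 10 (Sox6, Sox9, Acan and Hapln1) were, against 7.08%, and 1, Hapln3, was at least 3-fold lower, against 9.71%. Acan (3.19 and 3.84 on the log2 scale) and Hapln1 (3.39 and 2.20) were past 3-fold at both stages, as were 1.66% of all genes. None of the 10 was at least 3-fold lower at both stages, against 1.97%. With a fold of 2 the count at both stages was 4, with Sox5 and Sox6 joining, against 4.76% of all genes. With 5 FPKM added in place of 1 it was 1, Hapln1, against 0.369%. Several genes lay close to the limit at E9.5: Sox9 was just inside at 1.60, and Sox8 at 1.55 and Sox5 at 1.52 were just outside. The median log2 ratio of the 10 genes was 0.43 at E8.5 and 1.53 at E9.5, where that of all 11922 genes was 0.00 and -0.01.

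**Figure D2:**
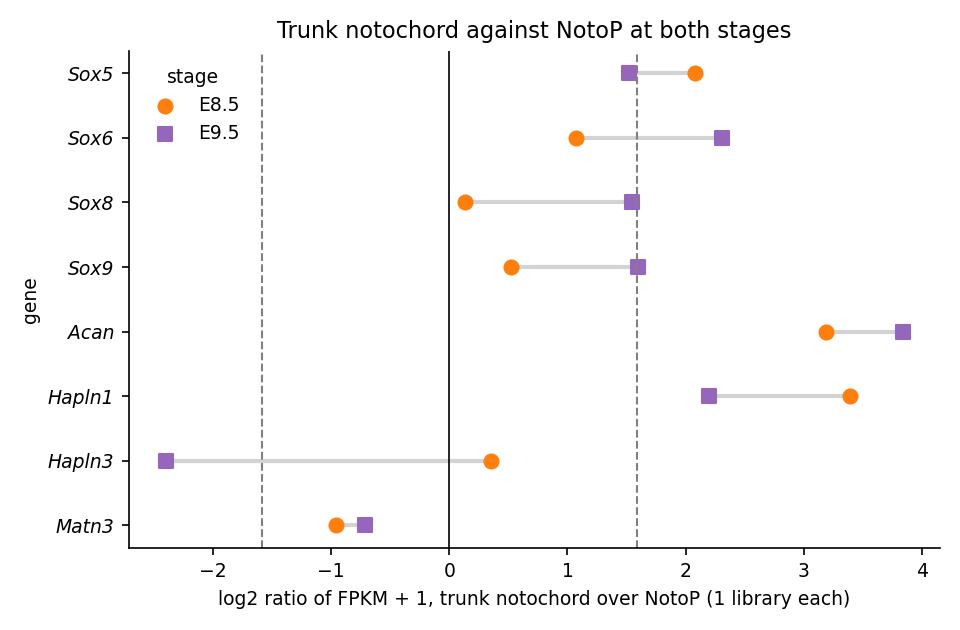
Log2 ratio of FPKM + 1 in trunk notochord over NotoP (horizontal axis) for the 8 genes that averaged 1 FPKM or more, with E8.5 as circles, E9.5 as squares and dashed lines at 3-fold. Acan and Hapln1 lie beyond the line at both stages, Sox5, Sox6, Sox8 and Sox9 lie to the right of 0 at both, and Hapln3 runs from 0.35 to -2.40.

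The comparison of NotoP with MP asks what separates notochord progenitors from their neighbours in the caudal end, and it picked out other members. Sox9 (5.72 and 4.22 on the log2 scale) and Hapln3 (2.49 and 2.43) were at least 3-fold higher in NotoP at both stages, 2 of the 10 genes, against 2.61% of all genes. Acan was at or below 0.256 FPKM in all 4 of these libraries, with log2 ratios of 0.33 and 0.03. At E8.5 these were the only 2 past 3-fold, against 16.6% of genes, and at E9.5 they were 2 of 4, against 4.84%. The other two were Sox5, at 1.45 and 1.89, and Hapln1, at 0.84 and 2.54. Matn3 was lower in NotoP, at -2.43 and -0.70, and was the 1 gene of the 10 past 3-fold in that direction at E8.5, against 7.4%. All ratios against MP at E8.5 carry that library's many genes at 0 and a median shift over all genes of 0.10.

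Set against MP, trunk notochord had 4 of the 10 genes at least 3-fold higher at both stages, where 4.44% of all genes were: Sox5 (3.53 and 3.40), Sox9 (6.24 and 5.82), Acan (3.52 and 3.87) and Hapln1 (4.24 and 4.74). The trunk libraries serve in both this comparison and the one with NotoP, and the MP libraries in both this one and the last, so the 3 are not independent.

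Between stages, Sox5, Sox6, Sox9, Acan and Hapln1 differed little in the trunk, with log2 ratios of E9.5 over E8.5 between 0.18 and 0.85. On the scale of FPKM + 1, none of the 10 genes reached 3-fold in either direction, against 7.13% of genes higher and 9.82% lower. A count of 0 of 10 is close to these shares. Sox8, at 1.57, and Hapln3, at -1.43, came nearest. In FPKM without the added 1, Sox8 was 4.32-fold higher and Hapln3 3.7-fold lower at E9.5. In NotoP none of the 10 reached 3-fold either, against 4.12% higher and 3.28% lower, with Hapln1 at 1.38 and Hapln3 at 1.32 the highest and Sox9 at -0.77 the lowest.

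In culture, where NotoPdiff cells model notochord progenitors, Sox9 was the one member that stood apart. Its level in NotoPdiff was 30.1-fold that in MPdiff and 27.9-fold that in NMPdiff. Sox9 was the only 1 of the 10 genes at least 3-fold higher in NotoPdiff than in MPdiff, at 4.23 on the log2 scale, where 2.82% of all genes were. Against NMPdiff, Sox9 (4.16) and Sox6 (2.00) were, 2 of 10, where 2.35% of all genes were. With 0.1 FPKM added in place of 1, Acan and Hapln3 joined Sox9 in the comparison with MPdiff, against 6.28% of all genes at that setting, and Acan stood at 0.331 FPKM in NotoPdiff. The remaining 8 genes were at or below 1.36 FPKM in NotoPdiff. As NotoPdiff cells received doxycycline, the Foxa2 transgene, the Noto reporter and the cell state cannot be told apart in these ratios. Against NMPdiff, the day of culture, 4 against 3, cannot be told apart from these either. Against MPdiff, also of day 4, Sox6 stood at 0.96 on the log2 scale.

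**Figure D3:**
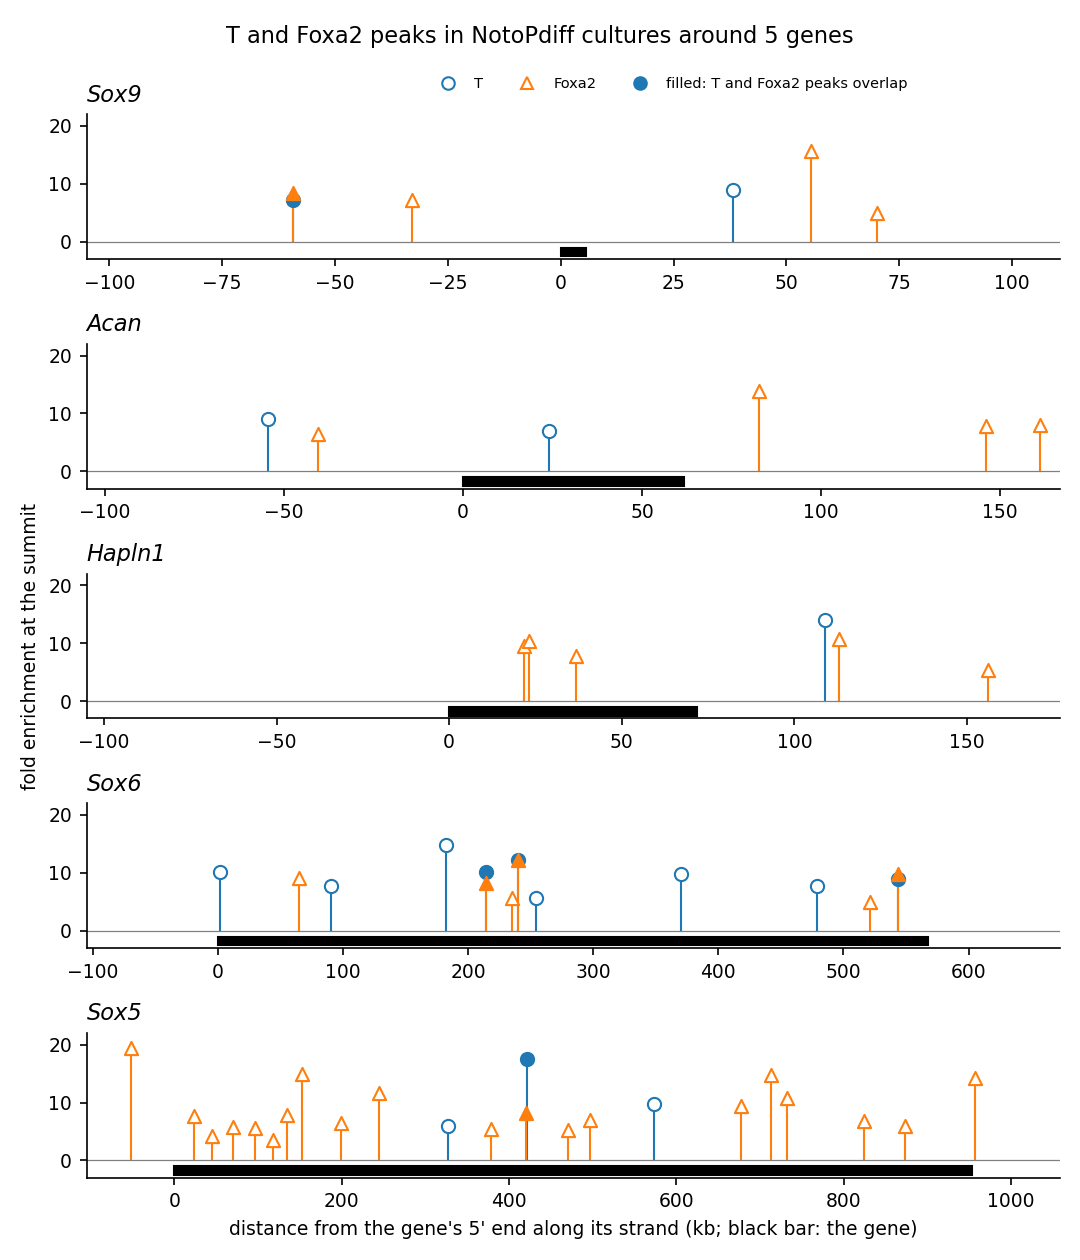
T peaks (blue circles) and Foxa2 peaks (orange triangles) of NotoPdiff cultures around 5 of the genes, by distance of the summit from the gene's 5′ end along its strand in kb (horizontal axis) and fold enrichment (vertical axis), with overlapping peaks filled and the gene as a black bar. Sox9 has 1 shared site 59.2 kb upstream, Sox6 has 3 and Sox5 has 1 inside the gene, and Acan and Hapln1 have none.

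Over all 10 genes, 9 had a T peak within 100 kb, where 50.5% of 19654 protein-coding genes did, and 8 had a Foxa2 peak, where 78% did. A T peak that overlapped a Foxa2 peak lay near 4 of the 10 (Sox5, Sox6, Sox9 and Matn3), against 11.4% of genes. The windows were not of equal size, from 205 kb for Sox8 to 1154 kb for Sox5. Per megabase, T peaks stood at 6.7 around these genes against 2.52 over the genome, and Foxa2 peaks at 12.9 against 8.32. The genome value includes sequence far from genes, so it is not the density around other genes. Peaks near both Acan and Hapln3 counted for each gene here. Counted once each, 24 T peaks and 45 Foxa2 peaks were found near the 10 genes, of which 13 and 27 lay inside 1 of them. Among these, 16 of the Foxa2 peaks (35.6%) and 0 of the T peaks had more than 50% CA or TG steps. Without such peaks the number of genes with a Foxa2 peak was 7, as Matn1 dropped out, and the number with a shared site remained 4. No share over all genes was taken without them. A forkhead site was found in 37.8% of the 45 Foxa2 windows and 41.7% of the 24 T windows, where all Foxa2 and T peaks had 36.6% and 29.4%. The T core was found in 25% of the T windows, where all T peaks had 31.2% and windows 10 kb away 12.1%.

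The collagens of cartilage accompanied Acan and Hapln1. Of 23 other cartilage genes found in the table, 10 averaged at least 1 FPKM. Of the 23, 7 were at least 3-fold higher in trunk notochord than in NotoP at both stages, and 1 was lower. The shares were 1.66% and 1.97% over genes averaging at least 1 FPKM, and 0.88% and 0.992% over all 23983 genes. The list median was 0.84 at E8.5 and 0.00 at E9.5, where that of all genes was 0.00 and -0.01. Col2a1, the main fibrillar collagen of cartilage and a known Sox9 target, stood at 188 and 308 FPKM in trunk notochord and 20 and 24.2 in NotoP. Col11a1 and Col11a2, its partners in the fibril, stood at 32 and 74.5 FPKM and at 23.9 and 46.6 in trunk notochord, against 1.3 and 2.3 and 0.168 and 0.115 in NotoP. The fibril-coating type IX chains Col9a1 and Col9a3 stood at 37.6 and 101 FPKM and at 5.41 and 6.68 in trunk notochord, against 5.48 and 6.03 and 0 and 0.226 in NotoP. Col9a2 and Lect1, the gene for chondromodulin, completed the 7 and were named after their values were seen. Wwp2, which hosts a microRNA of cartilage, was high at 58.1 and 142 FPKM in the trunk against 19.8 and 26 in NotoP, 1.50 and 2.40 on the log2 scale. Comp, a matrix glycoprotein that binds collagen, ran the other way, from 15.2 and 4.51 FPKM in NotoP to 0 in both trunk libraries. Of the 23 genes, 7 were listed at 0 in all 6 embryonic libraries. None of the 23 was at least 3-fold higher in NotoPdiff than in MPdiff on the FPKM + 1 scale, against 2.82% of all genes. Col2a1 stood at 4.05 FPKM in NotoPdiff against 5.55 in MPdiff, and Comp at 1.59 against 0.0179, or 1.34 on the log2 scale.

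**Figure D4:**
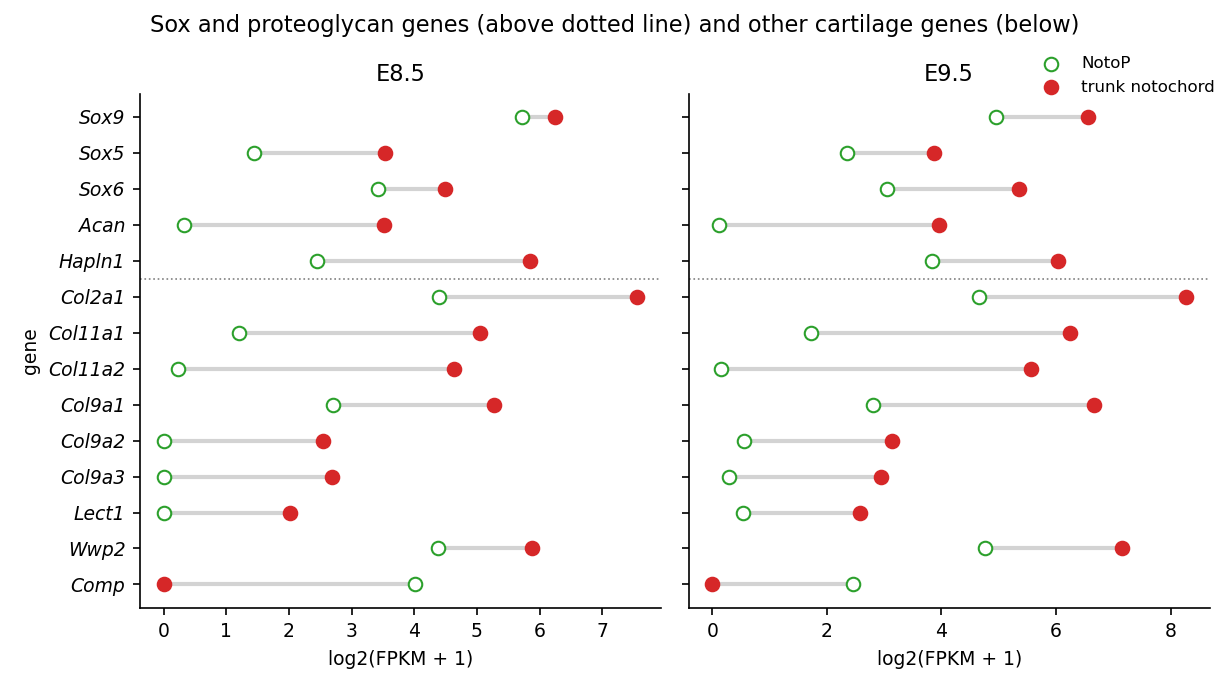
Levels as log2(FPKM + 1) (horizontal axis) in NotoP (open green) and trunk notochord (red) at E8.5 (left) and E9.5 (right), 1 library each, for 5 of the 10 genes and, below the dotted line, 9 other cartilage genes. The trunk is higher in every row but Comp, with Col2a1 at 188 and 308 FPKM the highest and Sox9 at E8.5 the smallest difference.

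Relatives of these genes were counted in the same way. Among 6 other genes of the aggrecan, link protein and matrilin families, none was past 3-fold at both stages. Of all genes, 1.66% were higher and 1.97% lower at both, so a count of 0 in so short a list is close to these shares. Vcan, for the hyaluronan-binding proteoglycan versican, stood at 106 and 101 FPKM in trunk notochord, 100 and 122 in NotoP and 67.6 and 151 in MP, so that it was above Acan in every library. Matn2 stood at 8.13 FPKM in the E8.5 trunk library and at 0 in both NotoP libraries and the E9.5 trunk library. Among 15 other Sox genes, Sox10 alone was past 3-fold at both stages, against the same shares. It stood at 2.43 and 26.3 FPKM in the trunk and at 0 in NotoP. Sox4 and Sox11, the 2 with the highest levels, stood at 46.2 and 39.4 and at 31.8 and 54.6 FPKM in the trunk, against 35.4 and 33.1 and 29.9 and 52.7 in NotoP.

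Of 24 genes for chondroitin sulfate synthesis and sulfation, 6 were at least 3-fold higher in the trunk than in NotoP at the earlier stage, against 7.37% of all genes. At E9.5, 3 were higher and 3 lower, against 7.08% and 9.71%, and Slc35d1 alone was higher at both stages, against 1.66%. Slc35d1, which carries nucleotide sugars into the secretory pathway, stood at 9.88 and 18.1 FPKM in the trunk and 1.63 and 5.12 in NotoP. Papss1, which makes the sulfate donor, stood at 29.7 and 27.4 FPKM in the trunk and 5.95 and 13.1 in NotoP, and Impad1, which clears the by-product of sulfation, at 44.2 and 44.7 against 53.6 and 36.7. Of 12 genes for hyaluronan synthesis, receptors and breakdown, none was past 3-fold at both stages, against 1.66% higher and 1.97% lower. Ugdh, which makes the precursor of both hyaluronan and chondroitin sulfate, was at 44.1 and 64.2 FPKM in the trunk and 24.7 and 21.6 in NotoP, and the hyaluronan receptor gene Hmmr at 27.5 and 35.2 against 22.6 and 30.4. None of 8 genes for aggrecanases and their inhibitor was past 3-fold at both stages, against the same shares. Timp3, the inhibitor, stood at 24 and 9.14 FPKM in the trunk against 9.67 and 6.88 in NotoP, and Adamts20 at 21.8 and 22.1 against 23.4 and 17.9.

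The profiles of Sox9 and Acan had different nearest neighbours among the 11922 genes. Likeness was measured as the mean absolute difference between centred log2(FPKM + 1) profiles over the 9 libraries, and it is a description of these libraries. Nearest to Sox9 were Cobl (0.25), Nog (0.35), Clu (0.45), Moxd1 (0.50) and Slit2 (0.59). All 5 were high in NotoP, trunk notochord and NotoPdiff. Cobl, for example, stood at 51 and 46.4 FPKM in NotoP, 59.7 and 115 in trunk notochord, 35.4 in NotoPdiff and no higher than 1.33 elsewhere. Nearest to Acan were Habp2 (0.20), Col6a3 (0.22), Serpina1b (0.23), Hpgd (0.23) and Atp8a2 (0.28). All 5 were high in the 2 trunk libraries and below 1 FPKM in the 7 others. Col6a3, a chain of the pericellular type VI collagen, stood at 7.3 and 17.5 FPKM in trunk notochord and at 0 in both NotoP libraries.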

How the data were processed

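RNA-seq was analysed from 9 libraries and ChIP-seq peak lists from 2 of the series' samples, and the others were not used here. The 10 genes, the gene lists and the marker lists were chosen with earlier results of these data known. For RNA, the authors trimmed reads, aligned them with TopHat2 2.1.1 and Bowtie 1.2.2 to mm10, removed duplicates by molecular identifier, and estimated FPKM with strand-aware counting in Cufflinks 2.2.1, and these deposited FPKM values were used as they stand. Cufflinks estimates are not whole multiples of a read, so no counting interval was given. For ChIP-seq on unsorted cultures, the authors aligned reads with Bowtie 1.3.1 and called peaks per library with MACS3 3.0.0b1 at a q of 0.1. The deposited fold enrichment at each summit (a ratio over control) and −log10 q were used, and the integer peak score the authors deposited beside them was not. All columns of sample values were used (0 left out).

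Ratios were log2 of FPKM + 1, a scale that understates the change of genes with low levels, and a call needed 3-fold. Each condition had 1 library, so no test, SD or p-value was possible. Counts over all genes used those with a mean of at least 1 FPKM. Named genes were all 10 members, per list those past 3-fold at both stages between trunk notochord and NotoP (at most 5 per direction) and the 2 highest in the trunk, and the 5 nearest to Sox9 and to Acan. Peaks were assigned to a gene if the summit lay inside it or within 100 kb (GENCODE vM21), and were shared if they overlapped by 1 bp. Sequences were read from the RefSeq mm10 (GRCm38) genome with pysam 0.24.0, and the motif letters were settled after their shares in all peaks were seen. Python 3.11.15 was used, and the fold calls were tested on simulated data.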

Additional observations from a re-analysis of the deposited data

Results flagged for a closer look

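Hapln3 was set apart because its trunk notochord to NotoP ratio pointed in opposite directions at the 2 stages, with a log2 ratio of FPKM + 1 of 0.35 at E8.5 and -2.40 at E9.5. The levels behind it were 6.14 against 4.61 FPKM and 1.66 against 13 FPKM. Sox8 was set apart for the ratio of NotoP to MP, 1.17 at E8.5 and -0.80 at E9.5, from levels of 1.26 against 0 FPKM and 1.5 against 3.35 FPKM. With 1 library per condition, the difference between stages was not tested for either gene.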

How the results depend on the processing

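No paired analysis was possible because each condition had 1 library, and for the same reason no replicate could be left out. The number of genes at least 3-fold higher in trunk notochord than in NotoP at both stages was 2, and it was 1 with 5 FPKM added in place of 1 (0.369% of all genes) and 4 with a fold of 2 (4.76%). The number higher in NotoP than in MP at both stages was 2, and it was 1 with 5 FPKM added (0.696%). The number higher in NotoPdiff than in MPdiff was 1, and it was 3 with 0.1 FPKM added (6.28%). The number with a shared T and Foxa2 peak was 4 within 100 kb, against 11.4% of protein-coding genes. It was 2 within 50 kb and 7 within 200 kb, where no share over all genes was taken. Each of these shifts follows from how the alternative was built. Rescaling the libraries by a median of ratios and dropping the filter on low levels left the 3 expression counts as they were. A q of 0.001 moved no peak count. Between neighbouring genes, the number with a T peak was 6 in place of 9. The number with a Foxa2 peak was 6 in place of 8, and that with a shared site 3 in place of 4. No share over all genes was taken for these intervals. An overlap of at least 0.5 of the smaller peak left the shared count at 4. Leaving out windows rich in CA or TG steps, an alternative chosen after seeing the data, moved only the Foxa2 count, to 7. For single genes, 192 ratios were recomputed over 8 genes and 8 contrasts: 165 stayed on their side of 3-fold, 15 moved past it with 0.1 FPKM added, 12 moved back with 5 FPKM added, and none of those called reversed. Low embryonic levels, near 1 FPKM in the trunk libraries, are the least certain.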
